A study of Mus musculus with 9 samples.

Results

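The 5 NF-kappaB subunit genes Nfkb1, Nfkb2, Rel, Rela and Relb were followed across 9 libraries of mouse liver macrophages. So were 5 genes grouped here as inhibitors, Nfkbia, Nfkbib, Nfkbie, Nfkbiz and Tnfaip3, though the protein of Nfkbiz also acts as a cofactor. All were taken by gene symbol, 1 feature each, so that they make up 10 of the 59445 features of the deposited expression table. RNA sequencing had been done on F4/80+ CD11b+ macrophages sorted by flow cytometry from liver non-parenchymal cells of male C57BL/6 mice. All mice had received 1 intraperitoneal injection of the hepatotoxin CCl4 24 hours earlier, at a labelled dose of 0.6 mg/kg, a unit that could not be verified. The control group, MAGL fl/fl (labelled WT), gave 4 libraries, S1, S3, S4 and S5, from mice aged 11 weeks. The other group, MAGL Mye-/-, gave 5 libraries, of which S8 and S12 came from mice aged 11 weeks and S9, S10 and S11 from mice aged 10 weeks. Mgll encodes MAGL, the enzyme monoacylglycerol lipase. The promoter that drove its deletion in myeloid cells is not given in the sources used here. Neither group was left without CCl4, so every value below describes injured liver, and nothing in the labels says how many mice went into a library.

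NF-kappaB is a family of dimeric transcription factors that sit in the cytoplasm of resting cells, bound by inhibitors of the IkB family. Signals from cytokine and Toll-like receptors activate the IkB kinase complex, the classical inhibitors are phosphorylated and degraded, and the dimers move to the nucleus. Several inhibitors are themselves NF-kappaB target genes, so that their transcripts are widely read as a sign of the pathway's feedback. In liver macrophages the pathway is known for driving the cytokine and chemokine genes of the response to hepatocyte damage. Transcript levels do not measure the protein, its location or its phosphorylation.

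The tables behind the values hold reads normalized by the authors with 1 size factor per library, called normalized reads here. Libraries held 33383559 to 46489349 reads, 14240 to 16802 features were detected per library, and the mitochondrial share ran from 3.49% to 9.45%, highest in fl/fl S3. The sort markers Itgam (CD11b) and Adgre1 (F4/80) were at 41570.4 to 55474 and at 4685 to 7801 normalized reads over the 9 libraries. Lyz2, the macrophage lysozyme, was named after its values were seen, and its feature is shared with Lyz1. It lay at 221530.0 to 422118 in fl/fl and at 143570.0 to 204782 in Mye-/- (limma adjusted p = 0.218, DESeq2 adjusted p = 8.1e-05). The targeted gene Mgll stood at 18.6, 0, 106 and 22.8 in the fl/fl libraries S1, S3, S4 and S5 and at 30.4, 46.6, 5.93, 42.7 and 0 in Mye-/- S8 to S12. Those values overlap and are too low to check the labels (log2 fold change -0.15 ± 1.69 SE, limma adjusted p = 0.985). The 10 genes together took 0.164% of reads in fl/fl S4, the lowest share, and 0.327% in fl/fl S3, the highest.

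Promoter sequence is shown here for the inhibitors Nfkbia and Tnfaip3, which were high and low in the same control libraries. That of Nfkbie, Rel and Nfkb2 is set beside it as the other genes of the 10 with the same letters. Their highest and lowest libraries were others: S9 and S3 for Nfkbie, S11 and S1 for Rel, and S9 and S5 for Nfkb2. Any part of the letters in these levels was not tested. The RefSeq promoter table (GRCm38.p6, the assembly of mm10) held 7 of the 10 genes and lacked Nfkb1, Relb and Nfkbiz. In the 250 bases before each start site, both strands were searched for GGGNNNTTCC, a short spelling of the kappaB element to which NF-kappaB dimers are known to bind. The letters occurred for 5 of the 7 genes, Nfkb2, Rel, Nfkbia, Nfkbie and Tnfaip3, and not for Rela and Nfkbib. Of all 27025 symbols with a window, 5.31% had a match. The narrower spelling GGGNNTTTCC, every match of which is also a match of the wider one, occurred for 4 of the 7 genes and for 1.65% of all symbols. Both spellings were settled on after these windows had been looked at, and a match describes letters, not binding. Capitals mark the match, which reads on the strand opposite to the gene for Nfkbia, for the second Tnfaip3 start and for Rel, and on the strand of the gene otherwise. Each sequence is written on the strand of its gene and runs 5′ to 3′. The first 4 end at the base before the start site, and the Rel and Nfkb2 stretches are kept to 30 bases around the match because their windows touch annotated exons.
Nfkbia, chr12:55492648-55492767, minus strand: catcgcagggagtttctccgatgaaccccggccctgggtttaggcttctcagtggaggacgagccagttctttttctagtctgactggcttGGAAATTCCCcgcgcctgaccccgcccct
Tnfaip3, chr10:19011964-19012083, minus strand: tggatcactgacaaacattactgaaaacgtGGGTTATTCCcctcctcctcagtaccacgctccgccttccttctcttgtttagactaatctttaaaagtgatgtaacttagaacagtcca
Tnfaip3, second start, chr10:19015411-19015530, minus strand: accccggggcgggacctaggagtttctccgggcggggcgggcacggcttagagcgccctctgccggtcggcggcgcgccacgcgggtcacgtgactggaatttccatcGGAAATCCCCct
Nfkbie, chr17:45555580-45555699, plus strand: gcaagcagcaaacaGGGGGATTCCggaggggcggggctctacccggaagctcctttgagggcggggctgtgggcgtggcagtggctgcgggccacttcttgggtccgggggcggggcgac
Rel, chr11:23771041-23771070, minus strand: gtaagcagcgGGAAATCCCCccccctcccc
Nfkb2, chr19:46305695-46305724, plus strand: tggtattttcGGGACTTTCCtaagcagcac
The match ends 20 bases before the start site in Nfkbia, and 81 and 3 bases before the first and the second Tnfaip3 start. These starts are numbered by coordinate, and the second, at 19015410, is the upstream one on the minus strand. In Nfkbie the match ends 97 bases before the start site, and in Rel 82 bases before it. Nfkb2 held 4 matches over 3 start sites, of which the sequence shown is 1. They ended 2 to 227 bases before their start sites, and the match shown ended 216 bases before its own.

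None of the 10 genes passed the test between genotypes. Macrophages of Mye-/- mice carried subunit and inhibitor transcripts at levels that overlapped those of fl/fl macrophages for every gene. Rel and Nfkbie lay higher in 4 of 5 Mye-/- libraries than in all 4 fl/fl libraries, and Nfkbia and Tnfaip3 ranged more widely among the fl/fl than among the Mye-/- libraries. The test was limma on log2(normalized reads + 1) over 15288 features, two-sided, at an adjusted p under 0.05 (Benjamini-Hochberg). It called 0 of the 10, against 3 of all features (0.0196%). DESeq2 and edgeR on the recovered reads also called 0 of 10, where DESeq2 called 0.996% of all features. At an unadjusted p under 0.05, limma gave 2 of 10, Rel and Nfkbie, both higher in Mye-/-, against 10.5% of all features. No gene of the 10 had groups that did not overlap, a pattern seen in 3.3% of all features. The log2 fold change, Mye-/- minus fl/fl on the log2(normalized reads + 1) scale, was above 0 for 6 genes and below 0 for 4, with a median of 0.08. Over all features the median was 0.06 and 54.6% were higher, and over the 5203 features with a mean of at least 1000 it was -0.01 and 48.1%. In these sorted cells fewer cells of a type and less RNA per cell cannot be told apart, and p-values assume that each library came from a separate mouse.

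**Figure D1:**
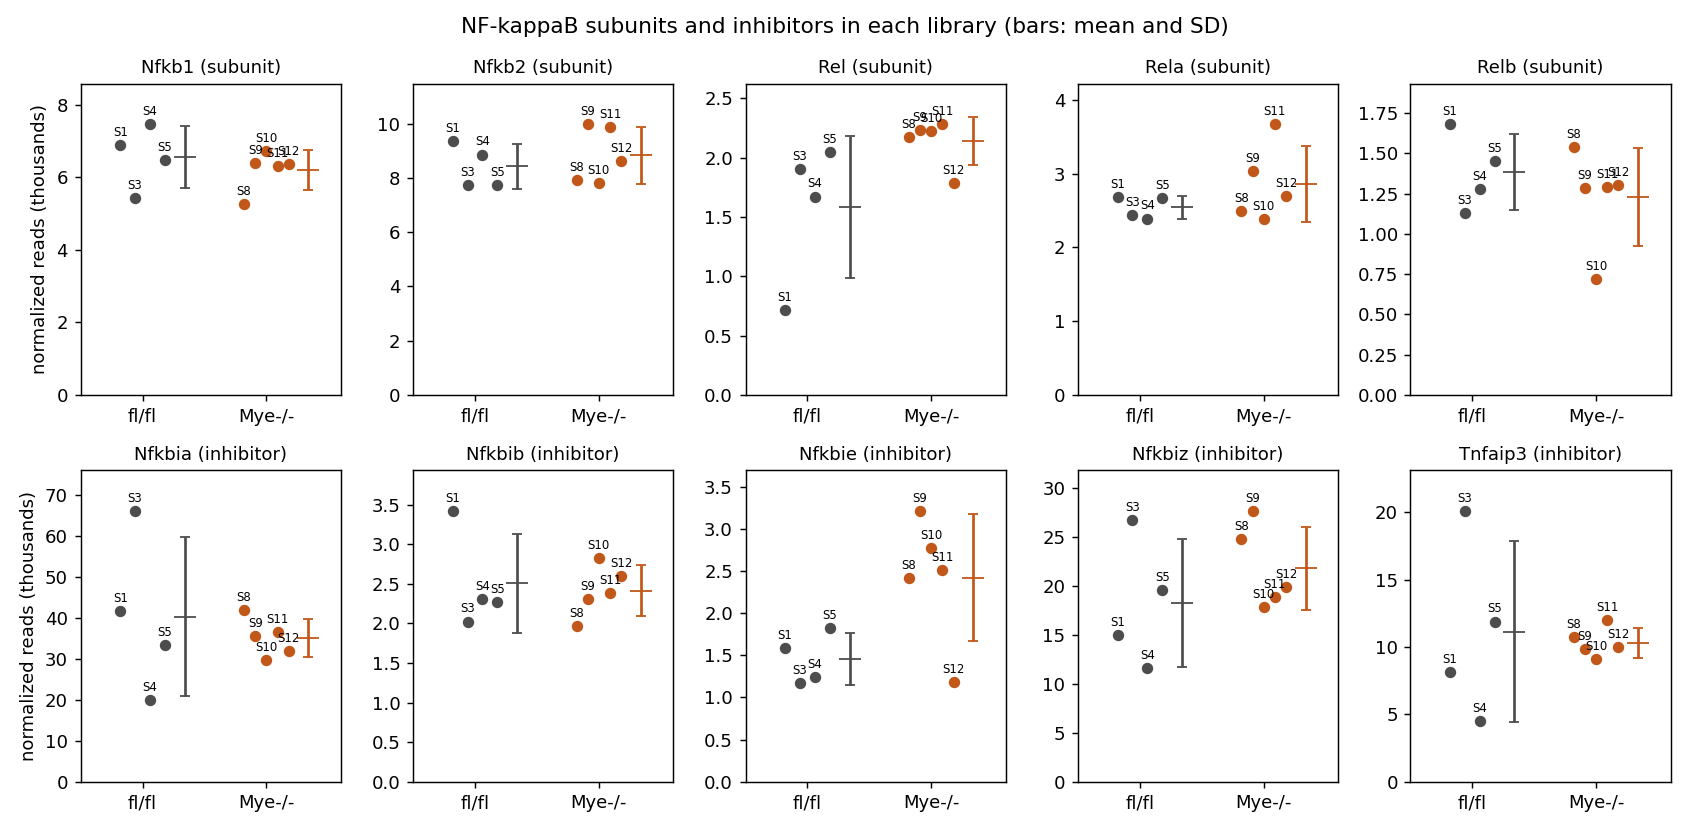
Normalized reads (divided by 1000, linear axis from 0) of each gene in each library, with fl/fl libraries in grey and Mye-/- libraries in orange, labelled by name. The bar beside each group is the mean and SD (n = 4 and n = 5). The groups overlap in all 10 panels, and S3 and S4 are the highest and the lowest library for Nfkbia and for Tnfaip3.

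Rela, which encodes the p65 protein of the canonical dimer (chromosome 19, 5637480 to 5648130, mm10, plus strand), was the steadiest gene of the 10 in fl/fl. It stood at 2683, 2436, 2393 and 2674 normalized reads in the fl/fl libraries S1, S3, S4 and S5. Its Mye-/- values were 2495, 3034, 2385, 3671 and 2701.5 in S8 to S12. The 3 highest libraries, S11, S9 and S12, were Mye-/-, while S10 was the lowest of all 9. The mean was 2546 ± 154 (SD) over the 4 fl/fl libraries and 2857 ± 518 (SD) over the 5 Mye-/- libraries. The difference was a log2 fold change of 0.15 ± 0.16 (SE), with a 95% interval from -0.18 to 0.48 (limma adjusted p = 0.777).

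Nfkb1 (chromosome 3, 135584657 to 135691547, minus strand) encodes the precursor that yields the DNA-binding partner of Rela. It was measured at 6879, 5422, 7461 and 6488 normalized reads in fl/fl, and Mye-/- libraries held 5272, 6380.45, 6726, 6304.5 and 6376 (S8 to S12). Mye-/- S8 and fl/fl S3 were low, and the other Mye-/- libraries lay within a narrow band inside the fl/fl range. A log2 fold change of -0.07 ± 0.13 (SE), 95% interval -0.36 to 0.21, was within the spread (limma adjusted p = 0.878).

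Nfkb2 (chromosome 19, 46304319 to 46312385, plus strand) encodes the precursor of the non-canonical pathway, which is processed after signals from receptors such as Ltbr and Cd40. Its fl/fl values were 9374, 7742, 8868 and 7739.7 normalized reads, and its Mye-/- values were 7911, 9984, 7804, 9870.15 and 8626. S9 and S11 were the highest libraries and S5, S3 and S10 the lowest, so both genotypes spanned nearly the same range. Its log2 fold change was 0.07 ± 0.13 (SE), 95% interval -0.21 to 0.34 (limma adjusted p = 0.891). The strand setting of the counting is not given in the sources used here, and 11.6% of the exon bases of Nfkb2 lie over the antisense gene AC114539.1 and 6.52% over Psd, so reads of these genes cannot be told apart. The ratio of Nfkb2 to Nfkb1 normalized reads was 1.19 to 1.43 in fl/fl and 1.16 to 1.57 in Mye-/-.

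Relb (chromosome 7, 19606217 to 19629439, minus strand), the partner of processed Nfkb2, stood at 1680.5, 1128, 1278 and 1450.4 normalized reads in fl/fl. In Mye-/- it stood at 1540.2, 1285, 720.6, 1289 and 1302.5. Mye-/- S10 was the lowest of the 9 libraries and fl/fl S1 the highest, and the other 4 Mye-/- values lay inside the fl/fl range. The difference was -0.20 ± 0.23 log2 (SE), 95% interval -0.68 to 0.27 (limma adjusted p = 0.794), and without S10 it was -0.02.

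Rel (chromosome 11, 23741517 to 23770970, minus strand) encodes c-Rel, a subunit best known from lymphocytes and from cytokine genes of myeloid cells. It stood at 718, 1901, 1672.5 and 2045 normalized reads in the fl/fl libraries S1, S3, S4 and S5. The Mye-/- values were 2173, 2237, 2223, 2282 and 1782.5 in S8 to S12. S1 was far below every other library, 4 Mye-/- libraries lay just above the highest fl/fl library, and S12 lay among the fl/fl libraries. The fl/fl mean was 1584 ± 597 (SD, n = 4) and the Mye-/- mean 2139 ± 203 (SD, n = 5). The log2 fold change was 0.54 ± 0.25 (SE), 95% interval 0.02 to 1.05, and it missed the threshold (limma adjusted p = 0.461, DESeq2 adjusted p = 0.718). Without S1 it was 0.19 (limma adjusted p = 0.727). Relative to Rela, Rel stood at 0.268 in S1 and at 0.621 to 0.932 in the other 8 libraries.

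**Figure D2:**
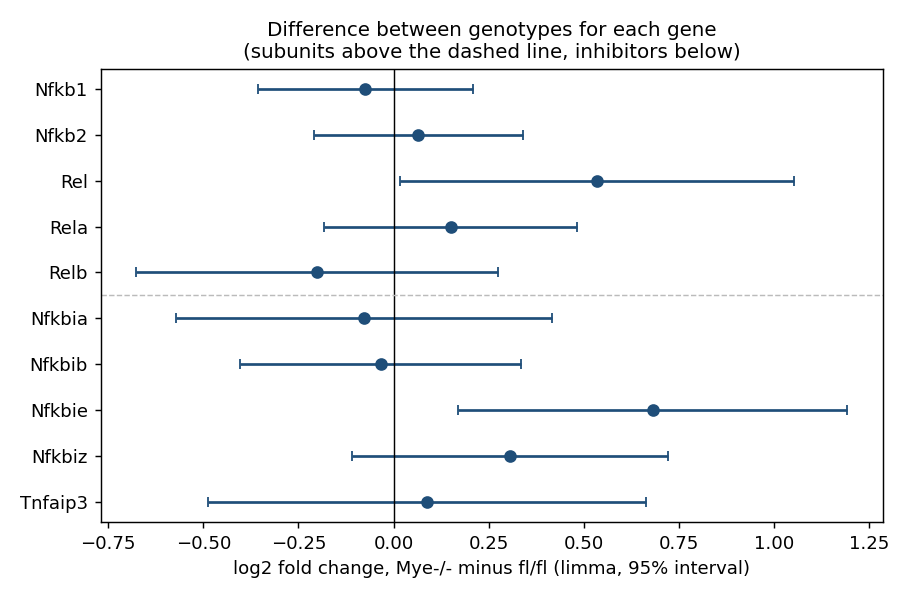
Log2 fold change of each gene, Mye-/- minus fl/fl (points), with its 95% interval from limma (bars); subunits are above the dashed line and inhibitors below it. The intervals of Rel (0.02 to 1.05) and Nfkbie (0.17 to 1.19) lie above 0 before adjustment, and the other 8 cross 0.

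Nfkbia encodes IkBalpha, the classical inhibitor that is degraded and then made again within hours of a signal (chromosome 12, 55489409 to 55492647, minus strand). Its fl/fl values were 41594, 66001, 19933 and 33203 normalized reads in S1, S3, S4 and S5. The Mye-/- libraries S8 to S12 held 41744, 35456, 29654, 36512 and 31819. The highest and the lowest of the 9 libraries were both fl/fl, S3 and S4, and all 5 Mye-/- libraries fell between them. The fl/fl mean was 40183 ± 19385 (SD, n = 4) and the Mye-/- mean 35037 ± 4655 (SD, n = 5), so that the coefficient of variation was 48.2% in fl/fl and 13.3% in Mye-/-. This difference in spread was not tested. On the log2 scale the difference was -0.08 ± 0.24 (SE), 95% interval -0.57 to 0.42 (limma adjusted p = 0.933). Its sign was not stable: it was 0.20 without S3, -0.37 without S4 and 0.017 with quantile normalization.

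Tnfaip3 encodes A20, a ubiquitin-editing enzyme that shuts off signalling upstream of the IkB kinases (chromosome 10, 19000913 to 19015410, minus strand). It followed the order of Nfkbia at both ends. Its fl/fl values were 8111, 20099, 4498 and 11892 normalized reads, and its Mye-/- values were 10724, 9837, 9073, 11986 and 9977. S3 was again the highest and S4 the lowest library, and the Mye-/- libraries lay close together between them. The coefficient of variation was 60.0% in fl/fl and 10.7% in Mye-/-. The log2 fold change was 0.09 ± 0.27 (SE), 95% interval -0.49 to 0.66 (limma adjusted p = 0.935), and it was 0.44 without S3 and -0.28 without S4. The ratio of Tnfaip3 to Nfkbia normalized reads ran from 0.195 to 0.358 in fl/fl and from 0.257 to 0.328 in Mye-/-.

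Nfkbiz encodes IkBzeta, an inducible nuclear member of the family that acts as a cofactor for secondary response genes such as Lcn2 and Il6 (chromosome 16, 55811375 to 55838899, minus strand). It stood at 15024, 26760.3, 11640.3 and 19572 normalized reads in fl/fl, and Mye-/- libraries held 24836, 27696, 17824, 18852 and 19942. S4 was the lowest library here too, but the highest was Mye-/- S9, followed by fl/fl S3. The fl/fl mean was 18249 ± 6539 (SD, n = 4) and the Mye-/- mean 21830.0 ± 4241 (SD, n = 5). The difference was 0.31 ± 0.20 log2 (SE), 95% interval -0.11 to 0.72 (limma adjusted p = 0.609), and it ran from 0.11 without S4 to 0.51 without S3.

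Nfkbie, which encodes the classical inhibitor IkBepsilon (chromosome 17, 45555699 to 45563169, plus strand), had the smallest p of the 10. Its fl/fl values were 1593, 1172, 1241 and 1825 normalized reads. Its Mye-/- values were 2416, 3216, 2779, 2511 and 1188 in S8 to S12. S8, S9, S10 and S11 lay above every fl/fl library, and S12 lay near the bottom of the fl/fl range. The fl/fl mean was 1458 ± 306 (SD, n = 4) and the Mye-/- mean 2422 ± 756 (SD, n = 5). At 0.68 ± 0.24 (SE), the log2 fold change (95% interval 0.17 to 1.19) missed the threshold (limma adjusted p = 0.335, DESeq2 adjusted p = 0.239), and its limma p ranked 535 among all features. Of the 4 high libraries 3 came from the 10-week-old mice. With age as a covariate, and equally in 11-week-old mice alone, the log2 fold change was 0.24. As all fl/fl mice were 11 weeks old, both estimates rest on the same 2 Mye-/- libraries, S8 at 2416 and S12 at 1188. An effect of age was not tested. Without S12 it was 0.92 (limma adjusted p = 0.196).

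Nfkbib, which encodes the classical inhibitor IkBbeta (chromosome 7, 28758251 to 28766644, minus strand), stood at 3423, 2025, 2311 and 2273 normalized reads in fl/fl. In Mye-/- it stood at 1965, 2312, 2822, 2383 and 2599.9. S1 was the highest library and the other 3 fl/fl values lay within the Mye-/- range. The log2 fold change was -0.03 ± 0.18 (SE), 95% interval -0.40 to 0.34 (limma adjusted p = 0.965), and it was 0.13 without S1. Ccer2 and Sirt2 lie on the opposite strand over 14.5% and 1.94% of its exon bases, so its level is uncertain in the same way as that of Nfkb2.

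**Figure D3:**
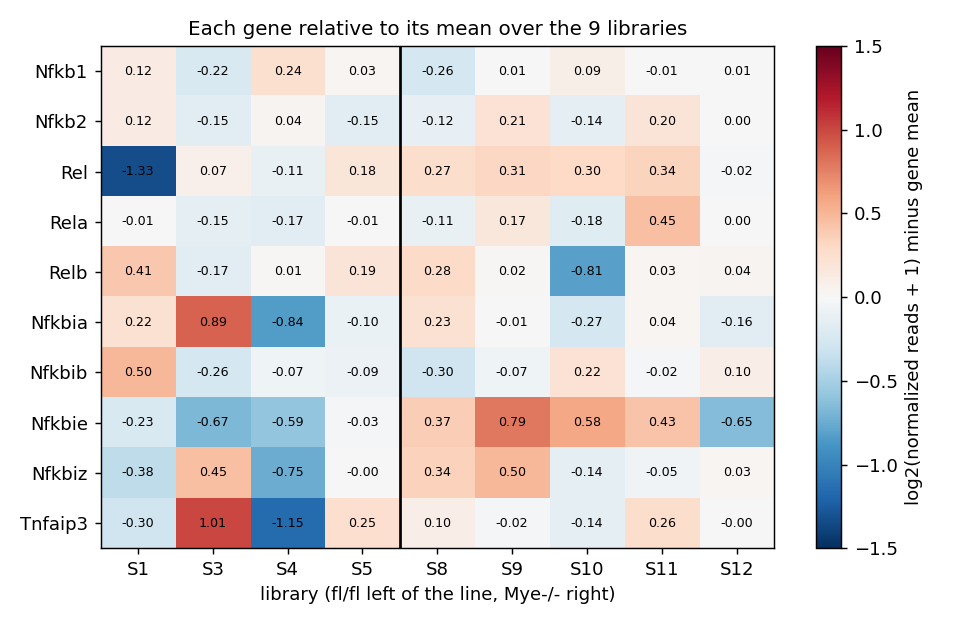
Each gene's log2(normalized reads + 1) in each library minus its mean over the 9 libraries, printed in the cell and coloured from blue (low) to red (high); fl/fl libraries are left of the line. Tnfaip3 (1.01 and -1.15) and Nfkbia (0.89 and -0.84) depart most in S3 and S4, Rel in S1 (-1.33), and Nfkbie is positive in 4 of the 5 Mye-/- libraries.

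Summed over the class, the inhibitors spanned a wide range in fl/fl, set by S3 and S4 and carried mostly by Nfkbia. The 5 subunits summed to 18628 to 21672 normalized reads in fl/fl and to 19392 to 23417 in Mye-/-. The 5 inhibitors summed to 39624 in fl/fl S4 and 116058 in fl/fl S3, and to 62152 to 81686 in Mye-/-. Gene by gene the classes overlapped: the highest fl/fl value over the lowest was 2.85 for the subunit Rel, against 1.69 for Nfkbib and 1.56 for Nfkbie. In Mye-/- it was 2.14 for the subunit Relb and 2.71 for Nfkbie, and 1.32 to 1.55 for the other 4 inhibitors. The ratio of Nfkbia to Rela normalized reads was 15.5, 27.1, 8.33 and 12.4 in the fl/fl libraries S1, S3, S4 and S5 and 9.95 to 16.7 in Mye-/-. S3 and S4 thus held the extreme values of this ratio as well, with the Mye-/- libraries between them. The same libraries stood apart in other measures: S3 had the highest mitochondrial share (9.45%) and the highest summed level of erythroid and platelet markers (35204 against 2593 to 14832 elsewhere), and S4 had the fewest detected features (14240). Their part in the levels of the inhibitors was not tested.

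S3 was also the highest library for Tnf, the cytokine that both activates NF-kappaB and is made under its control, named here after its values were seen. Tnf stood at 20324 normalized reads in S3, at 2627 to 3292 in the other 3 fl/fl libraries and at 3957 to 5005 in Mye-/-. In the list of 40 textbook NF-kappaB target genes, 34 could be tested, of which 8 had their highest value in S1 and 7 in S3 (20.6%, against 14.8% of all features tested). Of the 33 with a single lowest library, 16 had it in S4 (48.5%, against 13.7% of the 12080 such features). Gadd45b, a stress-response gene, Ccl4, a chemokine, and Cxcl10, an interferon-linked chemokine, were 3 of the 7, picked after their values were seen. Gadd45b stood at 26176 in S3 and 5892 to 14737 elsewhere, Ccl4 at 13971 and 3480.3 to 8810, and Cxcl10 at 11125 and 1231 to 4360.3.

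Per kilobase of the principal GENCODE transcript, averaged over the 9 libraries, Nfkbia was the most abundant of the 10 at 23653 normalized reads per kb. Nfkbiz followed at 4918, Nfkb2 at 2756, Tnfaip3 at 2417, Nfkb1 at 1547, Nfkbib at 1192, Rela at 1001, Nfkbie at 819, Relb at 587 and Rel at 254. The ranges over libraries of neighbours in this order overlapped, except those of Nfkbia (12632 to 41826) and Nfkbiz (2829 to 6730.4) and those of Relb (326 to 761) and Rel (96.2 to 305.6). Per kb of principal transcript, the inhibitor genes Nfkbia, Nfkbiz and Tnfaip3 lay above the subunit Rela in all 9 libraries. Length matters for Nfkb1, which stood at 528 per kb of all its annotated exon bases, 12.1 kb, against 1547 per kb of the 4.12 kb principal transcript. Per kb of exon bases Tnfaip3 stood at 1479 and Rela at 885, and libraries were not compared on that scale. The Rel feature starts at 23741517 but its GENCODE gene at 23736847, so the 3′ end may not have been counted. Rel was still divided by the full 7.466 kb, so its level per kb may be understated and its last place is uncertain.

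**Figure D4:**
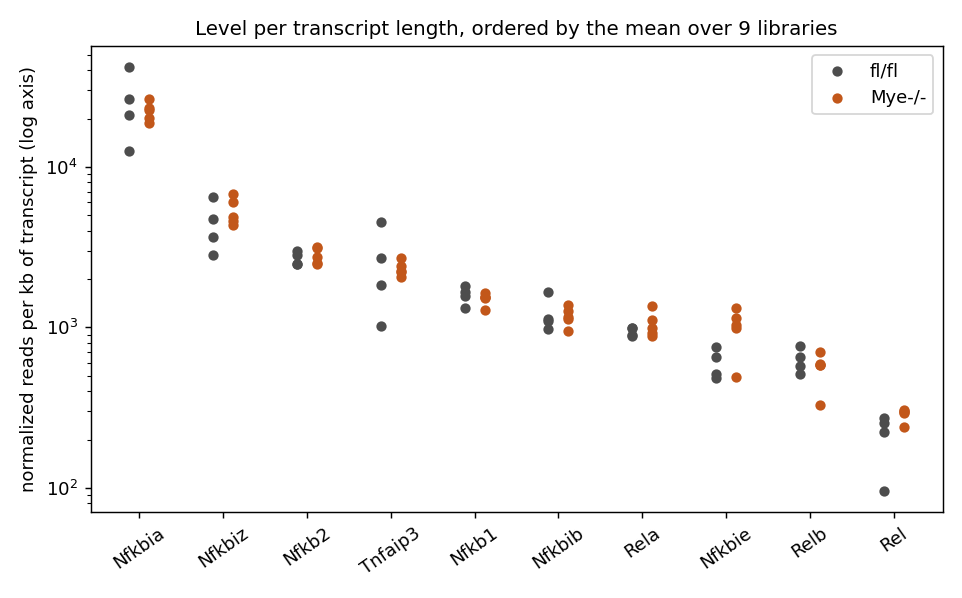
Normalized reads per kb of principal transcript (log axis) for each gene in each library, fl/fl in grey and Mye-/- in orange, in the order of the mean over 9 libraries. Nfkbia lies apart at the top (12632 to 41826) and Rel at the bottom (96.2 to 305.6), and the 8 between them form a continuous series. The place of Rel is uncertain because its feature stops short of the annotated 3′ end.

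The pathway upstream of the 10 genes was described with lists from textbook roles. Beside the counts of each list, 10.5% of all features tested had an unadjusted limma p under 0.05. The log2 fold change was above 0 for 54.6% of them, with a median of 0.06. All 17 genes of the IkB kinase complex and the kinases upstream of it could be tested. limma called 0 of 17, DESeq2 and edgeR 0, 2 had an unadjusted limma p under 0.05 (Ikbkb and Map3k8, both higher in Mye-/-), and 14 had a log2 fold change above 0, with a median of 0.24. Ikbkb, the catalytic subunit of the canonical kinase, stood at 11477 to 13466 normalized reads in fl/fl and at 14356 to 16705 in Mye-/-. Its groups did not overlap, but the log2 fold change of 0.29 ± 0.12 (SE) missed the threshold (limma adjusted p = 0.414, DESeq2 adjusted p = 0.180). The other abundant kinases and partners were closer to 0: Tab2, an adaptor of the kinase Map3k7, at -0.05, Irak1, of interleukin and Toll-like receptors, at 0.20, and Tbk1 at 0.16.

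Of 19 adaptors and ubiquitin ligases, limma called 0, DESeq2 and edgeR 0, and 4 had an unadjusted limma p under 0.05, all higher (Traf1, Traf6, Malt1 and Peli1). The median log2 fold change was 0.28, with 13 above 0. Card9, an adaptor of C-type lectin receptors, was the most abundant by normalized reads, with a log2 fold change of 0.24, followed by Bcl10 at -0.14, the ligase gene Birc3 at 0.28 and Ube2v1, a cofactor of ubiquitin chain formation, at -0.17. Myd88, the adaptor of Toll-like and interleukin receptors, was named after its values were seen because its groups did not overlap: 4279 to 4883 in fl/fl and 3667 to 4223 in Mye-/- (limma adjusted p = 0.647).

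Among 19 other IkB-family and feedback genes, limma called 0, DESeq2 and edgeR 0, and 3 had an unadjusted limma p under 0.05, all higher (Nfkbid, Zc3h12a and Usp18). The median was 0.16, with 12 above 0. Nfkbid encodes IkBNS, a nuclear relative of IkBzeta, and stood at 10284 ± 2598 normalized reads (SD) over the 4 fl/fl libraries and 15087 ± 2621 (SD) over the 5 Mye-/- libraries. Its S12 value of 11320.2 lay inside the fl/fl range of 7472 to 13680.4, and the other 4 Mye-/- libraries lay above that range (log2 fold change 0.57 ± 0.17 SE, limma adjusted p = 0.268, DESeq2 adjusted p = 0.115). This is the order also seen for Nfkbie, with S12 low and the other 4 Mye-/- libraries high. Bcl3, a nuclear partner of processed Nfkb1 and Nfkb2, was at -0.33 ± 0.16 log2 (SE, limma adjusted p = 0.493). The ubiquitin-binding genes Tax1bp1 and N4bp1 were at 0.03 and -0.03. Zc3h12a, an RNase that degrades cytokine transcripts, was named after its values were seen: it stood at 953 to 1693 in fl/fl and at 1712 to 2762 in Mye-/- (limma adjusted p = 0.218, DESeq2 adjusted p = 0.0565).

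Of 19 receptors and ligands 14 could be tested, and Lta, a lymphocyte cytokine, was at 0 in every library. limma called 0 of 14, DESeq2 and edgeR 0, and 1 had an unadjusted limma p under 0.05 (Tnfrsf11a, higher). For Tnf, DESeq2 gave no adjusted p and so could not call it. The median was 0.11, with 9 above 0. The log2 fold change was 0.22 for Tnfrsf1a and 0.31 for Tnfrsf1b, the TNF receptors, 0.11 for the Toll-like receptor gene Tlr2 and -0.15 for its co-receptor gene Cd14. Their limma adjusted p ran from 0.557 to 0.832.

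In the list of textbook targets limma called 0 of 34, with 6 at an unadjusted p under 0.05, 4 higher (Il1b, Ptgs2, Cd83 and Tnfaip2) and 2 lower (Saa3 and Lcn2). The median was 0.11, with 23 above 0. edgeR called 0 and DESeq2 called 2, Il1b higher and Lcn2 lower. Il1b, the inflammatory cytokine, stood at 24827, 20362, 11954.5 and 20381.5 normalized reads in fl/fl, and Mye-/- libraries held 35366, 30270.6, 33822, 40229 and 21485. S12 was once more the Mye-/- library within the fl/fl range (log2 fold change 0.75 ± 0.20 SE, limma adjusted p = 0.218, DESeq2 adjusted p = 0.0273). Lcn2, the iron-binding acute-phase protein, stood at 8986 to 13784 in fl/fl and at 4846 to 7073 in Mye-/- without overlap (log2 fold change -0.82 ± 0.15 SE, limma adjusted p = 0.0608, DESeq2 adjusted p = 0.000153). Icam1 (4399 to 4907.5 in fl/fl, 5033 to 6088 in Mye-/-) and Tnfaip2 (4552 to 6839 and 6947 to 7600) were named after their values were seen. Both were higher in Mye-/- without overlap, a pattern that either way held for 3.3% of all features. Ptgs2, the prostaglandin synthase, was at 0.46 ± 0.20 log2 (SE, limma adjusted p = 0.438), and the abundant targets Ier3, a stress gene, and Fth1, the ferritin heavy chain, were at 0.11 and 0.09. Il1b and Lcn2, both listed as targets of the pathway, thus lay on opposite sides of 0.

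**Figure D5:**
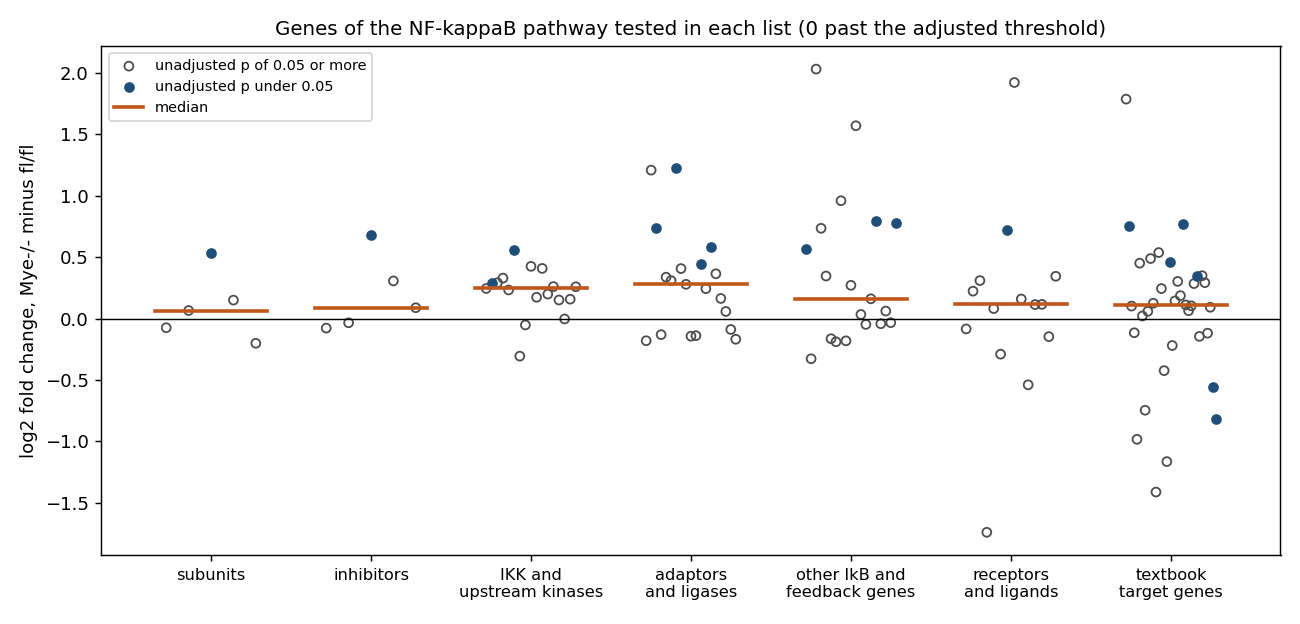
Log2 fold change, Mye-/- minus fl/fl, of every tested gene of 7 lists (subunits and inhibitors, 5 each, then 17, 19, 19, 14 and 34 genes); filled points have an unadjusted limma p under 0.05, and the bar is the median. The medians lie between 0.07 and 0.28, and no point passed the adjusted threshold.

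Lists of dissociation-linked genes and of cell type markers are given beside the results above, and most of their sums overlapped between genotypes. Of 15 immediate-early and dissociation-linked genes 11 were matched, and 9 of the 11 had a log2 fold change above 0. Their summed level was 580020 to 729282 normalized reads in fl/fl and 743930 to 824700 in Mye-/- without overlap (DESeq2 called 2, Fosb and Atf3, limma 0, and 3 had an unadjusted limma p under 0.05). Neutrophil markers summed to 27103 to 48393 in fl/fl and to 17637 to 38411 in Mye-/-, with 3 of 6 tested genes lower, 2 of them at an unadjusted limma p under 0.05 (S100a8 and S100a9), and 1 higher at that level (Csf3r). The sum was mostly S100a8, at 17885.5 to 36877 in fl/fl and 10460 to 26148 in Mye-/-. Ly6g was at 1.19 in S3 and at 0 elsewhere. The remaining markers, besides S100a9 and Csf3r, had means from 24.1 (Camp) to 172 (Retnlg) over all libraries. Erythroid and platelet markers summed to 5908 to 35204 in fl/fl and to 2593 to 6901 in Mye-/-. Of their 8 tested genes 4 were lower at an unadjusted limma p under 0.05, the globin genes Hba-a1, Hba-a2, Hbb-bs and Hbb-bt, at log2 fold changes of -1.86 to -2.46, and DESeq2 called 3 of them. The groups of Hba-a1 did not overlap (limma adjusted p = 0.0832), though reads of near-identical globin genes may be split between them. All 9 tested hepatocyte markers had a log2 fold change above 0, with a median of 1.16 and 1 at an unadjusted limma p under 0.05 (Ttr). Their sum of 13928 to 26708 in fl/fl and 15073 to 31758 in Mye-/- was mostly Trf, which macrophages also express and which stood at 0.02 log2. Of 7 tested Kupffer cell markers 6 were above 0, with a median of 2.01. That median was the value of Vsig4, which stood at 0, 0, 0 and 52.7 in the fl/fl libraries S1, S3, S4 and S5. C1qa, the most abundant, had a mean of 717 over all libraries and was at 0.41 log2 (limma adjusted p = 0.757). The others on the list had means from 1.33 (Timd4) to 163 (Marco), so their fold changes rest on few reads. Clec4f, Cd5l and Marco were higher and Cdh5 lower at an unadjusted limma p under 0.05, and the sum was 444 to 1434 in fl/fl and 805 to 3504 in Mye-/-, highest in S10. Dendritic cell markers summed to 239 to 560 and to 407 to 1340 normalized reads, with 3 of 4 tested genes above 0 (Flt3 at an unadjusted limma p under 0.05) and Xcr1 and Siglech at 0 in every library. Monocyte markers summed to 562807 to 842013 and to 580692 to 945423, with 6 of 8 genes below 0 (Ly6c2 at an unadjusted limma p under 0.05). Markers of B cells, in which Rel and Nfkbie are also expressed, summed to 137 to 176 and to 71.6 to 166, and Pax5 was at 0 in every library. T and NK cell markers summed to 69.6 to 607 and to 81.2 to 561, endothelial markers to 324 to 1295 and to 462 to 695, and stellate cell markers to 107 to 208 and to 0 to 113, with Lrat and Reln at 0. Macrophage identity genes summed to 322578 to 524398 in fl/fl and to 257778 to 321254 in Mye-/- without overlap. Lyz2 was lower, at an unadjusted limma p under 0.05 and called by DESeq2, and the other 4 of these 5 genes were above 0. In all of these marker lists limma called 0 genes, and DESeq2 called Lyz2 and the globin and dissociation genes given above. The part of these cells and of cell dissociation in the levels of the 10 genes was not tested.

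For Nfkbia, Nfkbiz and Relb, 3 genes settled on with earlier results of these data known, the features with the most similar pattern are given as a description over the same 9 libraries. Nfkbia was most like Tnfsf9, a ligand of the TNF family (Pearson r = 0.947, Spearman rho = 0.767), Cdk7 (0.938 and 0.80) and Mrps16 (0.918 and 0.850) on the log2 scale. All 3 had their highest value in S3 and their lowest in S4, and without S3 the r values were 0.885, 0.876 and 0.854. Nfkbiz was most like Nit2 (0.957 and 0.950), Sik3 (0.954 and 0.983) and a feature shared by Ppp1r10 and Gm8801 (0.945 and 0.917). Relb was most like Ilvbl (0.953 and 0.933), Gstm4 (0.935 and 0.633) and Adgrg1 (0.930 and 0.633), and the last 2 are low genes with 0 reads in S10, without which r was 0.686 and 0.659.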

How the data were processed

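The deposited signal table, 1 column per library, holds reads that the authors divided by 1 size factor per library (DESeq, per the file headers), on a linear scale without length correction. FastQC, Picard, SAMtools, STAR 2.4.0 and mm10 are named in the submitters' processing notes, and the file headers name FAST DB models. The counting tool, strand setting and handling of duplicates are not given in the sources used here. All nonzero values (100%, tolerance 0.01 reads) were whole multiples of 1 read, which gave back whole reads for count models. Between 66.1% and 68.3% of recovered counts under 1000 were even, so many counts may hold both mates of a pair, and the count models treat them as separate reads.

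The 15288 features that reached 10 in 4 or more libraries were tested with limma 3.58.1 (R 4.3.3, intensity trend) on log2(value + 1), 5 Mye-/- against 4 fl/fl, two-sided, Benjamini-Hochberg adjusted over all of them; all 10 genes passed that filter. Over all features, limma called 3, edgeR 4.0.16 2 and DESeq2 1.42.0 146 on recovered reads. Alternatives were pseudocounts of 0.5 and 8, other filters and scalings, no trend, array weights, age, 11-week-old mice only, each library left out, S1 and S3 left out, and, added after seeing the data, detected features as a covariate.

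The 10 genes and all gene lists were chosen with earlier results of these data known. Named besides the 10 were Mgll, the sort markers, the 4 genes with the highest mean of each pathway list and any past the threshold with limma or DESeq2, and the 3 features most like Nfkbia, Nfkbiz and Relb; other genes are said to be named after their values were seen, or are listed as the members of a count. Symbols not matched among the markers were Ighm, Trac, Jun, Junb, Hspa1a and Hspa1b. Transcript lengths and overlaps came from GENCODE M21, promoter windows from RefSeq GRCm38.p6. Replicate names are not shared between the groups, and no batch is labelled. PCR duplicates were not separable, so reads understate the error of low genes.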

Additional observations from a re-analysis of the deposited data

Results flagged for a closer look

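In 76 groups of 4 or 5 libraries, the highest or lowest library stood farther from the rest than Dixon's 95% limit in 6, and chance flags about 1 in 20 groups. Nfkb1 in Mye-/- S8 was low at 5272 normalized reads, with the next library at 6304.5. Rel in Mye-/- S12 was low at 1782.5, with the next at 2173. The other 4 all concern fl/fl S1. Rel over Rela was 0.268 there, with the next library at 0.699. S1 was high for the pathway genes Tab2 (15634, next 10004.4), Bcl10 (11173, next 6574) and Birc3 (6373, next 5247). The S3 values of Nfkbia and Tnfaip3 did not pass this limit. Only the 10 genes, the pathway genes named by rule and ratios between the 10 were examined. Genes named after their values were seen were left out, among them Tnf, at 20324 in S3 and 2627 to 3292 in the other fl/fl libraries. The 6 flags therefore do not show that S1 departs more than S3.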

How the results depend on the processing

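The count of NF-kappaB genes past the threshold was 0 in all 23 alternatives, and their median log2 fold change stayed above 0, between 0.000731 (detected features as a covariate) and 0.18 (without S1 and S3). Over all features, calls numbered 3 with limma and 146 with DESeq2, 17 with a pseudocount of 8, 21 without the trend, 6 with TMM, 8 with quantile normalization, 5 with array weights and 0 with either covariate (age or detected features) or in 11-week-old mice. Leaving out each library in turn gave 0 (without S8, or without S10) to 20 (without S5). Nfkb1, Rel, Rela, Nfkbie and Nfkbiz kept their sign in all 23. The other 5 crossed 0 in 15 fits, and 11 other named genes in 33. Log2 fold changes of opposite sign to the reported ones were, with age as a covariate and equally in 11-week-old mice, -0.024 for Nfkb2, 0.049 for Relb, 0.045 for Tab2, -0.013 for Card9, -0.047 for Tax1bp1 and 0.018 for Cd14. With quantile normalization they were 0.017 for Nfkbia and 0.0070 for N4bp1, and with array weights 0.00095 for Nfkbib, 0.018 for Tab2 and 0.040 for N4bp1. For Tnfaip3 they were -0.10 with edgeR, -0.11 with DESeq2 and -0.12 with detected features as a covariate, where N4bp1 was at 0.0090, Fth1 at -0.016 and Ier3 at -0.24. Without S1 and S3 they were 0.44 for Nfkbia, 0.066 for Nfkbib, 0.087 for Tab2, -0.013 for Irak1, 0.062 for Bcl10, 0.14 for N4bp1, -0.11 for Tax1bp1, 0.096 for Cd14 and -0.028 for Fth1. Leaving out each library in turn gave ranges of -0.37 to 0.20 for Nfkbia, -0.13 to 0.13 for Nfkbib, -0.28 to 0.44 for Tnfaip3, -0.23 to 0.074 for Bcl10, -0.32 to 0.067 for Cd14, -0.11 to 0.28 for Ier3, -1.45 to 0.80 for Mgll, -0.13 to 0.089 for N4bp1, -0.14 to 0.12 for Tab2, -0.042 to 0.093 for Tax1bp1 and -0.0020 to 0.18 for Tlr2. The causes were not tested. Il1b passed the threshold in 1 alternative and Lcn2 in 3. No paired analysis was possible because the groups share no replicate numbers.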
